A study of Mus musculus with 8 samples.

Results

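A set of 10 genes of the bone morphogenetic protein (BMP) pathway was followed in mouse embryonic stem cells after partial knockdown of Mkrn1, which encodes a zinc finger protein with ubiquitin ligase activity. They are the 4 Id genes (Id1, Id2, Id3 and Id4), the signal transducers Smad1 and Smad5, the inhibitory Smad6, the ligand gene Bmp4, the receptor gene Bmpr1a and the decoy receptor gene Bambi. They were chosen by name, and for each the probe set carrying exactly 1 gene symbol was read. All 10 were measured, among 19937 genes in all, and each had 1 probe set.

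The arrays came from R1 cells, male embryonic stem cells derived from a 129X1 x 129S1 blastocyst and grown on gelatin with LIF and 15% serum. The 4 shGFP arrays are the control and carry a pLKO.1 plasmid with a hairpin against GFP; the 4 shMKRN1 arrays carry the same plasmid with a hairpin against MKRN1. Both groups received puromycin at 2 µg/mL for 4 days, and RNA was taken from the resistant cells as a population on day 6. The plasmid was delivered transiently, a single hairpin per gene was used, and the labels do not say whether the arrays of a group come from separate transfections, so each p-value rests on a spread among arrays that could be technical. The shMKRN1 hairpin sequence, printed to identify the knockdown and with no base singled out, is gcgagatgttgcttatgcttt.

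BMP ligands bind pairs of type I and type II receptor kinases at the cell surface. The type I receptor phosphorylates SMAD1 and SMAD5, which enter the nucleus with SMAD4 and switch on target genes; the Id genes are the classic targets, and Smad6, Smad7 and Bambi are targets that feed back to restrain the pathway. Id proteins are helix-loop-helix factors without a DNA-binding region that hold E proteins and so keep proneural factors from working. In embryonic stem cells, BMP from serum acts together with LIF to sustain self-renewal, in good part through the Id genes.

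The knockdown was partial. Mkrn1 lay between 10.34 and 10.51 on the log2 scale in shGFP and between 9.81 and 9.88 in shMKRN1, which left 66.2% of the control level (95% confidence interval 61.0% to 71.7%; limma adjusted p = 0.000767). The leading principal component over all genes set shGFP 7 apart (23.2, against -3.45 to 6.20 for the other shGFP arrays), and shMKRN1 8 lay at 7.46 against -15.2 to -6.02 for the other shMKRN1 arrays. The differences of Smad6, Id2, Bmpr2, Fst, Id4 and Bambi are therefore also given without both of these arrays. Of the 10 stem cell markers checked, all lay above 6.50, the background level, under which 95% of 1194 olfactory and vomeronasal receptor genes fell. Nanog and Fbxo15 rose and the other 8 did not pass; Pou5f1 averaged 11.99 in shGFP and 11.98 in shMKRN1. All 10 members also lay above that background.

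The promoters of Smad6, Id2 and Id3 are shown because these were the members with the 3 largest differences between the groups, in both directions. The stretches run from 250 bases before the transcript start to 30 after it, 5′ to 3′ on the gene's own strand, from RefSeq (GRCm38.p6). Capitals mark 2 motifs that SMAD proteins can bind, GTCTAGAC and GGCGCC, each of which reads the same on both strands. Smad6 is chr9:64022030-64022309 on the minus strand, Id2 is chr12:25096063-25096342 on the minus strand, and Id3 is chr4:136143572-136143851 on the plus strand.
Smad6: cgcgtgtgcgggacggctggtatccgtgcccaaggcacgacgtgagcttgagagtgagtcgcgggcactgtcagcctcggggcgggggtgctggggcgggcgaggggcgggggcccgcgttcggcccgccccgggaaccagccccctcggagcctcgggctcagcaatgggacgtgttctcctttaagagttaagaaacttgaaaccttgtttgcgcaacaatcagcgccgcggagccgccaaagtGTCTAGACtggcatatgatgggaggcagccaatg
Id2: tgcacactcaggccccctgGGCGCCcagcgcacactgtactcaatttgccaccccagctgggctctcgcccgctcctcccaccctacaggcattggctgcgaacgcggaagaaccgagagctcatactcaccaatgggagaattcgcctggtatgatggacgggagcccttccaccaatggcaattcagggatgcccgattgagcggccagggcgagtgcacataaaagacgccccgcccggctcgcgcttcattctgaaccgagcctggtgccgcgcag
Id3: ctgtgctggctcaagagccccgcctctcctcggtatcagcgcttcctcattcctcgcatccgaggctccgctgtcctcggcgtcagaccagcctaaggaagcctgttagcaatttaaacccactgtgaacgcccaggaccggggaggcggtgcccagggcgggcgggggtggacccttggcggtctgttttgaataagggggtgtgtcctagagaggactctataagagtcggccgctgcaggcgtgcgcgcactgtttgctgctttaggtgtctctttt
GTCTAGAC occurred in the Smad6 stretch, with its leading base at position -4 from the transcript start, and in 0.213% of the 32851 RefSeq promoters of 300 bases. GGCGCC occurred in Id2, with its leading base at position -231, and in 11.9% of all promoters. Id3 held neither, and is in lower case throughout. Promoter entries of 8 members were read, 10 entries in all, and the promoters of Id1 and Bambi were not examined. GGCGCC was found in 4 of these members, namely Bmpr1a, Id2, Id4 and Smad5, and GTCTAGAC in Smad6 alone. These are counts of genes, and not every Smad5 entry held GGCGCC, whereas the shares over all promoters count entries. The members' windows were 60.0% to 79.3% G or C. That share was not computed for all promoters, so the counts are not read as an enrichment. The 4-base core GTCT, which GTCTAGAC contains on each strand, was found in 88.0% of all promoters. These matches describe the letters of the windows and do not show binding.

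Smad6 rose in the knockdown, and no other member passed the test. Of the 10 members, 1 was higher and 0 were lower at a limma adjusted p under 0.05, over all 19937 genes. The background was 4.49% of all genes (3.66% higher and 0.838% lower). At an unadjusted p under 0.05 there were 4 members (Smad6, Id2, Id3 and Smad5) against 19.5% of all genes. The values of the groups did not overlap for 2 members, against 14.1% of all genes: Smad6 was the 1 higher (10.6% of all genes) and Id2 the 1 lower (3.51%). With 10 genes, these shares are not read as setting the members apart. Their median log2 difference was 0.025, beside 0.0077 over all genes, with a range of -0.36 (Id2) to 0.31 (Smad6).

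**Figure D1:**
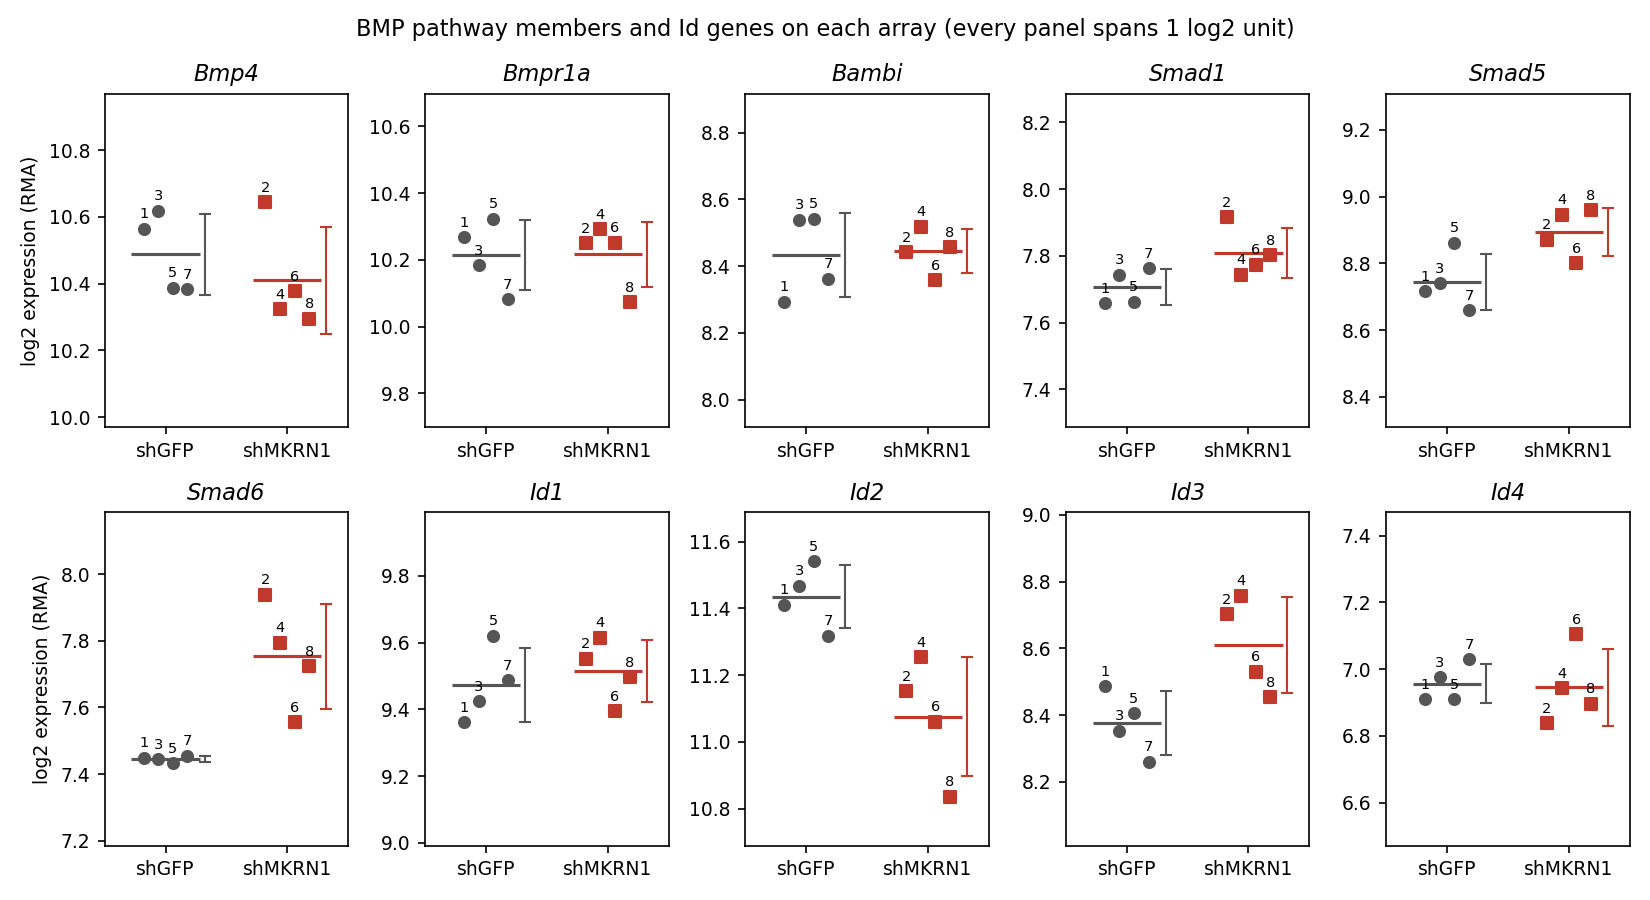
Log2 expression (vertical axis, every panel spanning 1 log2 unit) of the 10 members on the 4 shGFP arrays (grey circles) and the 4 shMKRN1 arrays (red squares), numbered as in the labels; horizontal lines are group means and error bars ±1 SD. The groups are separate for Smad6 and Id2, cross at a single pair of arrays for Id3 and Smad5, and overlap for the others.

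At the top of the pathway, no difference was detected in the ligand, the type I receptor or the decoy receptor. Bmp4, a BMP ligand gene, lay between 10.38 and 10.62 in shGFP and between 10.30 and 10.64 in shMKRN1. Its highest value was shMKRN1 2, while the other 3 shMKRN1 arrays lay below all shGFP arrays. The log2 difference was -0.079 (95% confidence interval -0.28 to 0.12; limma adjusted p = 0.702). Bmpr1a, the type I receptor kinase gene, lay between 10.08 and 10.32 in shGFP and between 10.07 and 10.29 in shMKRN1. Its difference of 0.0019 (-0.15 to 0.16; adjusted p = 0.994) leaves room for 89.9% to 112% of the control level. The lowest Bmpr1a value of each group came from shGFP 7 and shMKRN1 8, the arrays that stood apart over all genes. Bambi, which encodes a receptor lacking a kinase that dampens the signal, lay between 8.29 and 8.54 in shGFP and within that range, between 8.36 and 8.52, in shMKRN1 (difference 0.0098, -0.15 to 0.16; adjusted p = 0.964). The sign of the Bmpr1a and Bambi differences turned under quantile normalization, and neither is read as a direction.

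The receptor-activated SMAD genes were slightly higher on average and did not pass. Smad1 lay at 7.66, 7.74, 7.66 and 7.76 in shGFP and at 7.92, 7.74, 7.77 and 7.80 in shMKRN1 (arrays 1, 3, 5 and 7, and 2, 4, 6 and 8, as in all lists of this kind). Of the shMKRN1 arrays, 3 lay above all shGFP arrays, shMKRN1 2 by most, and shMKRN1 4 lay among them. The difference was 0.10 (95% confidence interval -0.022 to 0.23; limma adjusted p = 0.361). Smad5 lay at 8.72, 8.74, 8.86 and 8.66 in shGFP and at 8.87, 8.95, 8.80 and 8.96 in shMKRN1. The single crossing was between shGFP 5 and shMKRN1 6. The difference was 0.15 (0.014 to 0.29; unadjusted p = 0.0334, adjusted p = 0.206, both by limma).

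The inhibitory SMAD gene Smad6 was the member that rose. Its product competes for the receptors and for SMAD1 and is made in response to BMP. Smad6 lay at 7.45, 7.44, 7.43 and 7.45 in shGFP and at 7.94, 7.79, 7.56 and 7.72 in shMKRN1. The shGFP arrays were nearly level, with an SD of 0.0090 that is smaller than that of all but 0.15% of genes, whereas the shMKRN1 arrays spread over 0.16 (SD), with shMKRN1 2 highest and shMKRN1 6 lowest. All 4 shMKRN1 values lay above all 4 shGFP values. The difference of 0.31 (SE 0.075) put Smad6 at 124% of the control level (95% confidence interval 110.2% to 139%; limma adjusted p = 0.0485; exact permutation p = 0.0286, the smallest that 4 against 4 arrays allow). This call rests on all arrays together: it was lost without any 1 of 7 arrays (adjusted p 0.0692 to 0.128) and held without shMKRN1 6 (difference 0.37, adjusted p = 0.0291). Without both shGFP 7 and shMKRN1 8 the difference was 0.32 (adjusted p = 0.0867), so its size did not hang on the arrays that stood apart.

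The 4 Id genes had differences of both signs, and none passed the test. Id2 had the largest difference of any member, and it was downward. Its log2 level was 11.41, 11.47, 11.54 and 11.32 in shGFP and 11.15, 11.25, 11.06 and 10.84 in shMKRN1. All 4 shMKRN1 values lay below all 4 shGFP values, with shMKRN1 8 the lowest. The difference was -0.36 (SE 0.089), or 77.9% of the control level (95% confidence interval 67.9% to 89.4%). Id2 missed the threshold narrowly (limma adjusted p = 0.0511; exact permutation p = 0.0286, the smallest possible). It passed without shMKRN1 4 (difference -0.42, adjusted p = 0.0483), without shGFP 7 (-0.40, 0.0461) and without both shGFP 7 and shMKRN1 8 (-0.32, 0.0388). Without shMKRN1 8 alone the difference was -0.28 (adjusted p = 0.0669).

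Id3 leaned the other way. Its log2 level was 8.49, 8.35, 8.41 and 8.26 in shGFP and 8.70, 8.76, 8.53 and 8.45 in shMKRN1. The groups crossed at shGFP 1 and shMKRN1 8 alone. The difference was 0.23 (SE 0.079; 95% confidence interval 0.058 to 0.41; unadjusted p = 0.0141, adjusted p = 0.130, both by limma), and it did not pass. For Id1 the shGFP arrays lay at 9.36, 9.42, 9.62 and 9.49 and the shMKRN1 arrays at 9.55, 9.62, 9.39 and 9.50. These values interleave, and the difference of 0.041 (-0.12 to 0.20; adjusted p = 0.817) allows 92.3% to 115% of the control level. Id4 lay between 6.91 and 7.03 in shGFP and between 6.84 and 7.10 in shMKRN1, also interleaved (difference -0.011, -0.16 to 0.13; adjusted p = 0.957), and the sign of this difference turned under quantile normalization and under median centring.

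**Figure D2:**
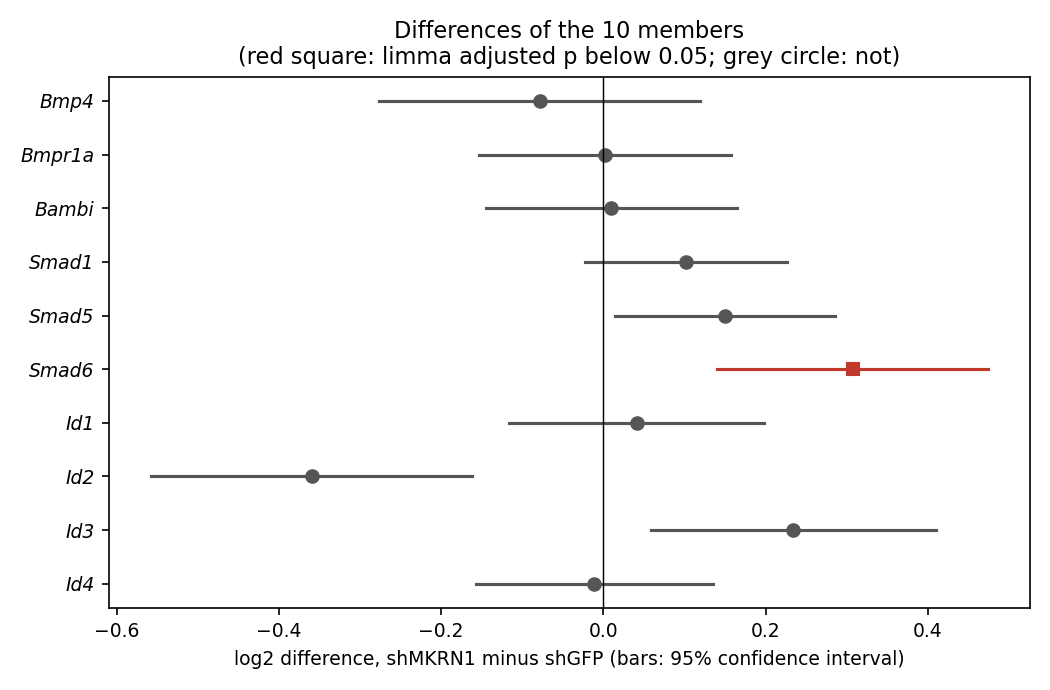
Log2 difference, shMKRN1 minus shGFP (horizontal axis), of the 10 members with 95% confidence intervals from limma over 4 arrays per group. Smad6 (0.31) is the red square past an adjusted p of 0.05; the interval of Id2 (-0.36) lies wholly below 0 and those of Smad5 (0.15) and Id3 (0.23) wholly above it, and the other 6 include 0.

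Whether the Id genes differed from each other in response was tested on the difference between 2 Id genes within each array, for all 6 pairs. The gap between Id2 and Id3 was 2.92, 3.11, 3.14 and 3.06 in shGFP and 2.45, 2.50, 2.53 and 2.38 in shMKRN1. All 4 knockdown values lay below all controls, and the difference of -0.59 exceeded the spread in either group (SD 0.095 and 0.064). For Id1 and Id2 the gap differed by 0.40, again without overlap. Both had an exact two-sided permutation p of 0.0286, the smallest possible, and 0.0857 after Benjamini-Hochberg adjustment over the 6 pairs, which does not pass. With only these pairs at the smallest p, a larger gap could not have lowered the adjusted value. It therefore cannot decide whether the Id genes differed in response. The exact p of the other 4 pairs lay between 0.0571 and 0.714 (0.114 to 0.714 adjusted). Id2 and Id3 were picked out here after their values were seen.

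The wider pathway showed a few called genes among many with small differences. The 6 lists of related genes, drawn up from general knowledge, held 99 measured genes, the members included. Of these, 4 rose and 2 fell, with a median difference of -0.0059, and 15 had groups that did not overlap. At an unadjusted limma p under 0.05 there were 22, and the counts of this kind in each list stand beside 19.5% of all genes. As the 4.49% called and 14.1% without overlap are the background over all genes, these shares do not set the pathway apart.

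**Figure D3:**
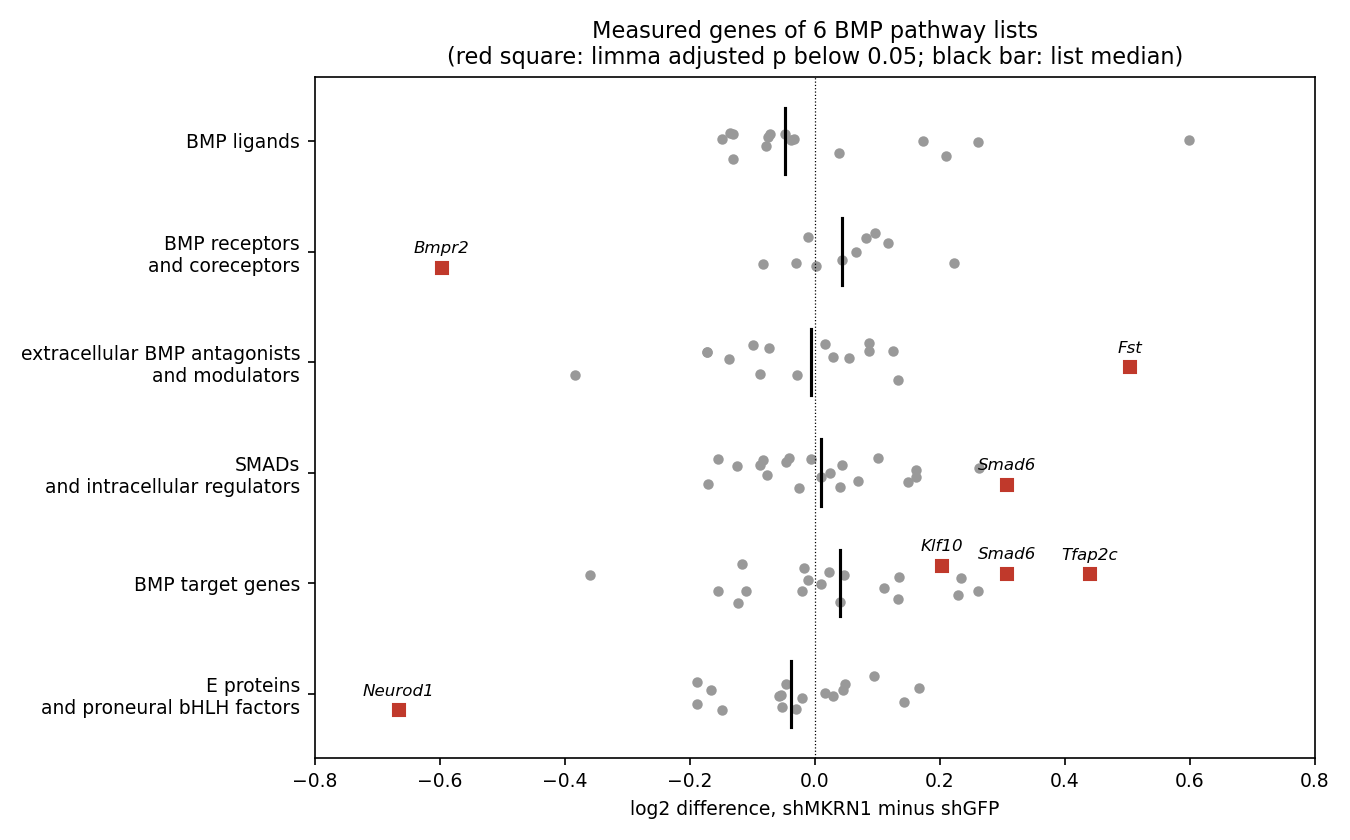
Log2 difference, shMKRN1 minus shGFP (horizontal axis), of every measured gene of the 6 lists, with black bars at the list medians. Each gene has 1 point in each list that holds it, and Smad6, Smad7 and Bambi belong to 2 lists. Red squares are the genes past an adjusted p of 0.05: Bmpr2 and Neurod1 on the lower side and Fst, Smad6, Klf10 and Tfap2c on the higher side.

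Among receptors, Bmpr2 fell. It encodes the BMP type II receptor kinase that activates BMPR1A. Its log2 level was 11.23, 10.97, 10.90 and 10.64 in shGFP and 10.43, 10.36, 10.31 and 10.25 in shMKRN1. All shMKRN1 arrays lay below all shGFP arrays, and the shGFP arrays were the more spread, with shGFP 7 closest to the knockdown. The difference was -0.60 (SE 0.11; limma adjusted p = 0.0156), or 66.1% of the control level (95% confidence interval 56.0% to 78.1%). The call was lost without shGFP 3 (adjusted p = 0.0585) and without shMKRN1 6 (0.0551), and held without shGFP 7 and shMKRN1 8 together (difference -0.67). None of the other 10 measured receptors and coreceptors passed, 2 at an unadjusted p under 0.05 counting Bmpr2. The next in p were the coreceptor gene Tgfbr3 (0.22, adjusted p = 0.141) and the endothelial coreceptor gene Eng (0.096, adjusted p = 0.390), and the list median was 0.044.

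None of 15 ligand genes passed, and 3 had an unadjusted limma p under 0.05, near the 19.5% of all genes. Bmp2, a ligand close to BMP4, lay at 6.67, 6.74, 6.55 and 6.09 in shGFP and at 7.67, 7.08, 6.75 and 6.93 in shMKRN1. The groups did not overlap, by a margin of less than the spread within either, and shMKRN1 2 was the highest. The shGFP mean of 6.51 lay at the background level of 6.50, so the difference of 0.60 (SE 0.20; limma adjusted p = 0.122) starts from background. Gdf3, a ligand of the early embryo that can restrain BMP signalling, had a difference of -0.13 (adjusted p = 0.162), and Bmp8b one of 0.26 (adjusted p = 0.230). In this list 6 genes averaged below the background level, and the list median was -0.047.

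Of 16 extracellular antagonists and modulators, Fst rose. It encodes follistatin, which traps activin and, less tightly, BMPs. Fst lay at 9.09, 9.21, 9.42 and 8.90 in shGFP and at 9.74, 9.66, 9.52 and 9.72 in shMKRN1. The groups were apart, with shGFP 5 and shMKRN1 6 nearest to each other. The difference was 0.50 (SE 0.10; limma adjusted p = 0.0246), or 142% of the control level. The call was lost without shGFP 1, shGFP 3, shMKRN1 2, shMKRN1 4 or shMKRN1 8 (adjusted p 0.0515 to 0.0778), and without both shGFP 7 and shMKRN1 8 the difference was 0.40 (adjusted p = 0.0527). The follistatin-like gene Fstl1 (-0.17, adjusted p = 0.164) and the transmembrane BMP-binding gene Crim1 (-0.38, adjusted p = 0.205) did not pass, and the list median was -0.0059.

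Among 21 SMADs and intracellular regulators, Smad6 alone passed, and 7 had an unadjusted p under 0.05. Smad7, the other inhibitory SMAD gene, lay at 10.20, 10.18, 10.16 and 10.08 in shGFP and at 10.11, 9.93, 10.02 and 9.94 in shMKRN1. Its difference of -0.15 (limma adjusted p = 0.167) pointed away from that of Smad6 and did not pass; the contrast between them was not tested. The kinase gene Hipk2 (0.16, adjusted p = 0.107) and Nedd4l (0.26, adjusted p = 0.115), a ubiquitin ligase gene whose product targets SMADs, came next in p. Smad4, the common partner, had a difference of -0.088 (adjusted p = 0.377), and the list median was 0.0098.

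Of 21 BMP target genes, 3 rose and 0 fell: Smad6, Tfap2c and Klf10. Tfap2c, a transcription factor gene of trophectoderm and germ cells, lay at 8.72, 8.64, 8.45 and 8.41 in shGFP and at 8.96, 8.94, 9.19 and 8.90 in shMKRN1 (difference 0.44, SE 0.087; limma adjusted p = 0.0228). Klf10, a zinc finger gene induced early by TGF-beta family ligands, lay at 10.50, 10.43, 10.48 and 10.46 in shGFP and at 10.64, 10.67, 10.72 and 10.65 in shMKRN1 (difference 0.20, SE 0.046; adjusted p = 0.0372). The groups were separate for both genes. Tfap2c lost its call without shGFP 3, shGFP 5, shMKRN1 2, shMKRN1 4 or shMKRN1 6 (adjusted p 0.0533 to 0.0643), and Klf10 without each array in turn (0.0563 to 0.133). The targets did not share a direction: Id2 and Smad7 were lower at an unadjusted p under 0.05 and 5 genes were higher, with a list median of 0.041.

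Of 18 genes for E proteins and other basic helix-loop-helix factors, the class that Id proteins hold or work beside, Neurod1 fell. It is a neuronal differentiation factor gene. Neurod1 lay at 9.34, 9.29, 9.37 and 9.24 in shGFP and at 8.48, 8.87, 8.72 and 8.51 in shMKRN1. The groups were well apart, the difference was -0.67 (SE 0.086; limma adjusted p = 0.00381), and the call held without each array in turn (adjusted p 0.00362 to 0.0173). The E protein genes themselves, Tcf3 (0.049), Tcf4 (0.045) and Tcf12 (0.095), did not pass (adjusted p 0.587 to 0.781). Hes1, a Notch-responsive repressor gene, had a difference of 0.17 (adjusted p = 0.147) and Tal1, a blood factor gene, of -0.19 (adjusted p = 0.287).

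Some markers of other cell types differed between the groups. The mean levels of the groups were apart for the primitive streak and neural ectoderm lists. They overlapped for the trophectoderm, fibroblast and primitive endoderm lists. In RNA from whole populations fewer cells of a type cannot be told apart from less RNA per cell. Of 9 primitive streak and mesoderm markers, 4 rose (Mixl1, Eomes, Lhx1 and Fgf8), and their mean level was 6.98 to 7.18 in shGFP and 7.42 to 7.73 in shMKRN1, with Mesp1 below background. Of 10 trophectoderm markers, which include Tfap2c, 2 rose (Eomes and Tfap2c), with mean levels of 8.64 to 9.01 and 8.89 to 9.24 and with Elf5 below background. Of 9 neural ectoderm markers, 1 fell (Neurod1) and 5 were lower at an unadjusted p under 0.05, with mean levels of 8.39 to 8.45 and 8.15 to 8.19 and with Zic1 below background. Of 9 fibroblast markers, 2 rose (Col1a1 and Pdgfrb), with mean levels of 6.86 to 6.98 and 6.92 to 7.12, while Lum and Postn were below background. No primitive endoderm marker of 10 passed (limma), and 2 had an unadjusted p under 0.05, with mean levels of 7.62 to 7.80 and 7.60 to 7.77. Over all genes 4.49% were called (3.66% higher and 0.838% lower) and 19.5% had an unadjusted limma p under 0.05. The 2 primitive endoderm markers are near that share. The part of these cell types in the differences of Smad6, Id2, Bmpr2 and the other genes was not tested.

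**Figure D4:**
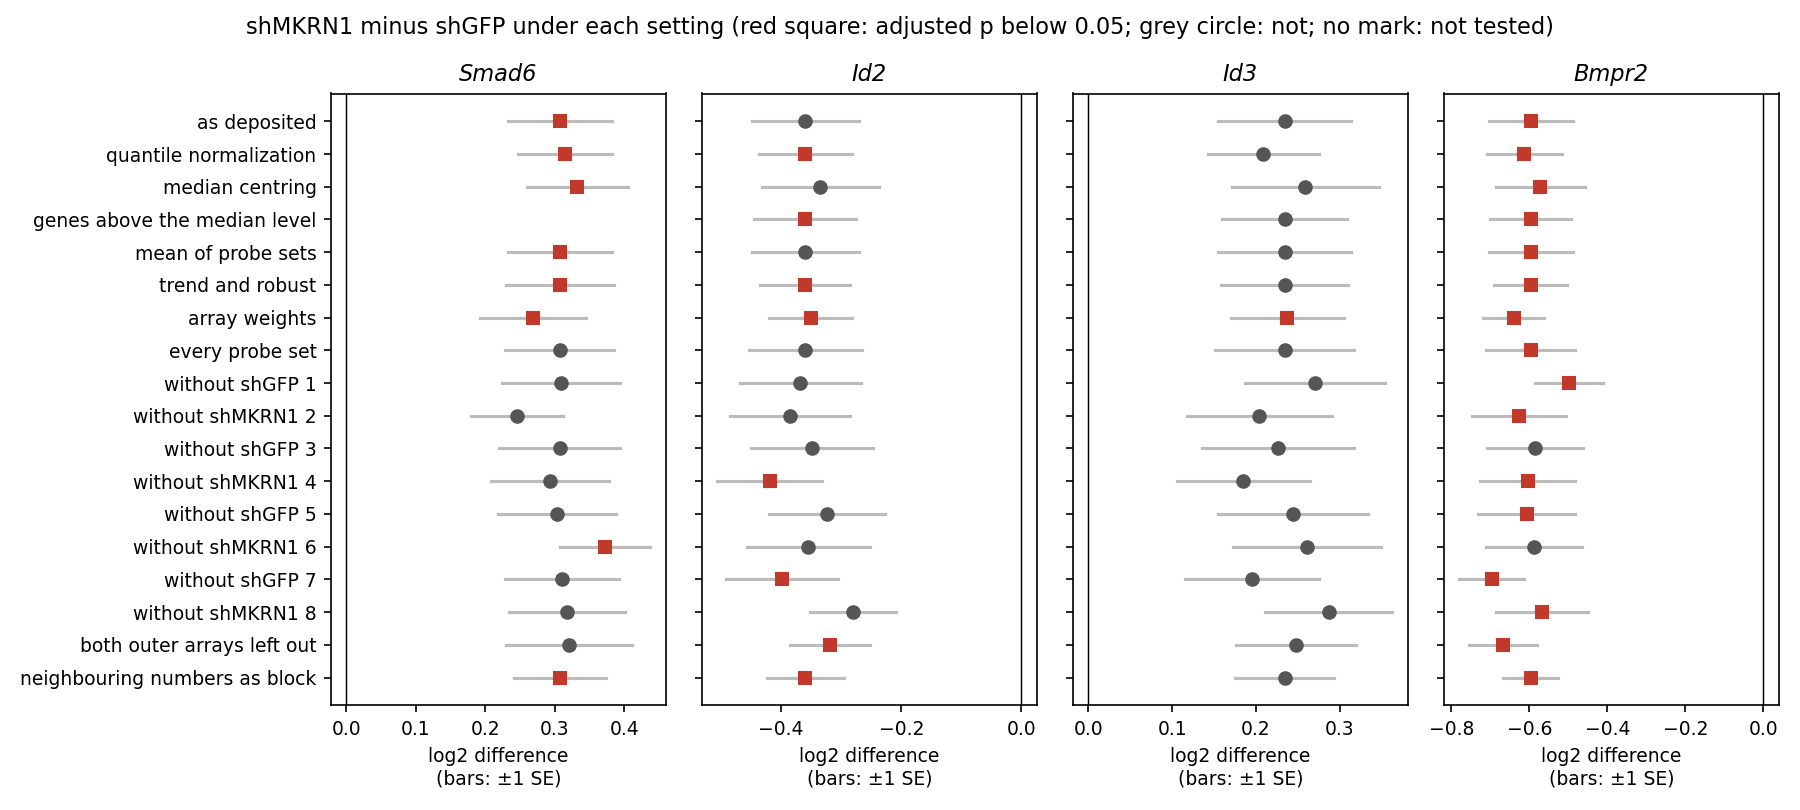
Log2 difference, shMKRN1 minus shGFP (horizontal axis, ±1 SE), of Smad6, Id2, Id3 and Bmpr2 under each processing setting (rows); red squares have an adjusted p under 0.05. Every difference keeps its side of 0, while the calls of Smad6 and Id2 come and go with the setting. Bmpr2 loses its call without shGFP 3 and without shMKRN1 6, and Id3 is called with array weights alone. Smad6 has no point where genes under the median level were left out.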

How the data were processed

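Total RNA of the 8 samples was measured on Affymetrix gene arrays. The deposited table holds log2 expression values of 34760 probe sets, and the submitters' processing notes name RMA as the authors' method. Neither the RMA version nor a genome build is given in the sources used here. This method brings arrays to a common distribution, so a change shared by most genes is not visible and changes of dim genes are understated. The number of arrays limits the precision.

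Symbols came from the platform annotation (21640 probe sets with 1 symbol, 1321 with several, 11799 unnamed); the probe set with the highest mean was kept per symbol. Groups were fitted for all 19937 genes with limma 3.58.1 in R 4.3.3 (lmFit, eBayes; 6 residual and 4.00 prior degrees of freedom), two-sided, with Benjamini-Hochberg adjustment over all genes and a threshold of 0.05; the fit was checked on simulated arrays. Exact permutation tests ran over the 70 assignments of 8 arrays. Genes named beside the members were those past the threshold and the 3 smallest p of each pathway list; Smad4, Smad7 and the E protein genes were added after their values were seen. Members and lists were chosen with earlier results of these data known. The alternatives were other scalings, filters, probe set choices and spread models, array weights, fits without single arrays and, added later, a block of neighbouring array numbers.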

Additional observations from a re-analysis of the deposited data

How the results depend on the processing

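Smad6, Id2, Id3, Smad1, Smad5, Id1 and Bmp4 kept their direction under every setting tried. Id4 turned to 0.015 with quantile normalization, 0.014 with median centring, 0.028 with array weights and 0.030 without shGFP 7 and shMKRN1 8 together, and ranged from -0.064 to 0.025 without single arrays. Bmpr1a turned to -0.017 with quantile normalization and ranged from -0.042 to 0.049 without single arrays. Bambi turned to -0.013, -0.053 and -0.019 with quantile normalization, array weights and without those 2 arrays, and ranged from -0.037 to 0.046. The cause was not tested.

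Of the members, 1 was called as deposited, 2 with quantile normalization, 2 with trend and robust settings and 3 with array weights (Id2, Id3 and Smad6). When every probe set was fitted and adjusted together 0 were called, and 0 to 1 without single arrays. That fit tests more features and also changes the SE (Smad6 0.075 as deposited and 0.078 over every probe set). The members' median difference was 0.012 to 0.050 under other settings and -0.0014 to 0.066 without single arrays. With genes under the median level left out, Smad6 was not tested and Id2 passed (adjusted p = 0.0194). Pathway genes called went from 6 to 12 with array weights, 2 over every probe set and 1 to 5 without single arrays. All genes called went from 896 to 1595 above the median level, 1549 with trend and robust settings, 2757 with array weights, 521 over every probe set, and 309 to 852 without single arrays. The split of all calls was 806 higher and 290 lower with quantile normalization and 875 and 125 with median centring.

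The groups share no replicate number, and the labels state no pairing. A fit with neighbouring numbers (1 and 2, 3 and 4, and so on) as a replicate block was added after the data were seen. Deviations from the group means correlated by 0.13, -0.047, 0.26 and 0.64 over genes within these pairs. Of the 4 shGFP arrays, 1 correlated best with its neighbour, and the numbers were not taken to pair the samples. With 4 arrays per group this check is weak, and whether neighbouring arrays shared a handling step was not tested. With this block, 2 members were called (Smad6, adjusted p = 0.0322, and Id2, 0.0176), Id3 was not (0.0531), and the calls were 12 among pathway genes and 1446 among all genes. Bmp2 (0.0305), Bmp8b (0.0188), Crim1 (0.0271) and Nedd4l (0.0466) passed in this fit, and no gene named from the pathway lists lost its call. Differences as small as those of Id4, Bmpr1a and Bambi could not be resolved.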
